A study of Mus musculus with 6 samples.

Results

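The transcription factor Yy1, which was the gene targeted in these mice, and 8 genes whose products work beside it on chromatin (Ctcf, Rybp, Ezh2, Eed, Suz12, Ring1, Rnf2 and Ino80) were followed in subcutaneous white fat, labelled IWAT. Members were all probe sets that the array's annotation table pairs with one of these 9 genes, 25 of 22690 in the table. Of these, 23 are annotated to 1 gene alone and cover 8 of the 9 genes, with 4 probe sets for Yy1, 2 for Ctcf, 1 for Ezh2, 2 for Eed, 6 for Suz12, 1 for Ring1, 5 for Rnf2 and 2 for Ino80. The other 2 are annotated to several genes, and 1 of them is the only probe set for Rybp. A probe set is a group of short oligonucleotides against 1 stretch of transcript, so probe sets of a gene share their target and are not independent replicates.

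The control group held YY1flox/flox mice (n = 3 arrays), and the group labelled YY1bKO held YY1flox/flox mice that also carried Ucp1Cre (n = 3 arrays). All mice of both groups were 8 weeks old, had a mixed C57BL6 and 129 background, carried the floxed Yy1 alleles and had eaten a high fat diet for 2 weeks. Ucp1Cre places the recombinase under Ucp1 control, which is on in thermogenic adipocytes above all, and the labels call the deletion specific to brown fat. The share of cells that recombined in this white fat depot was not measured. No group carried Cre without floxed Yy1. The labels do not state that the arrays came from separate mice, so each p-value speaks only of spread among these samples, which may be technical, and 3 arrays per group limit the precision of every value.

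YY1 is a zinc finger protein that binds DNA and can activate or repress transcription. It is known as a bridge between DNA and chromatin complexes: Polycomb repressive complex 2 (PRC2), which methylates histone H3 at lysine 27, Polycomb repressive complex 1 (PRC1), which ubiquitinates histone H2A, and the INO80 complex, which remodels nucleosomes and holds YY1 as a subunit. YY1 also joins enhancers to promoters, as CTCF does for larger chromatin loops, and in muscle cells it is known to act with the coactivator PGC-1α under control of mTOR.

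No difference of Yy1 or of its partners was called between the groups. None of the 23 probe sets passed an adjusted p of 0.05 by limma (Benjamini-Hochberg over the 20393 probe sets with 1 gene symbol), where 0.0294% of all probe sets, 6 in number, passed, all of them higher in YY1bKO. At an unadjusted p under 0.05, 1 of the 23 was called, in the higher direction, against 9.74% of all probe sets (7.69% higher and 2.05% lower). The members' log2 differences ran from -0.30 to 0.88 with a median of -0.05, beside a median of 0.00 over all probe sets (0.0012 before rounding), and 8 of the 23 were higher, against 50.3% of all. All 23 lower bounds of the 95% confidence intervals lay above -1, a level 2-fold lower, and 22 of the 23 intervals lay between -1 and 1. Here and below a difference is YY1bKO minus control on the log2(intensity + 1) scale, which understates changes of dim probe sets.

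**Figure D1:**
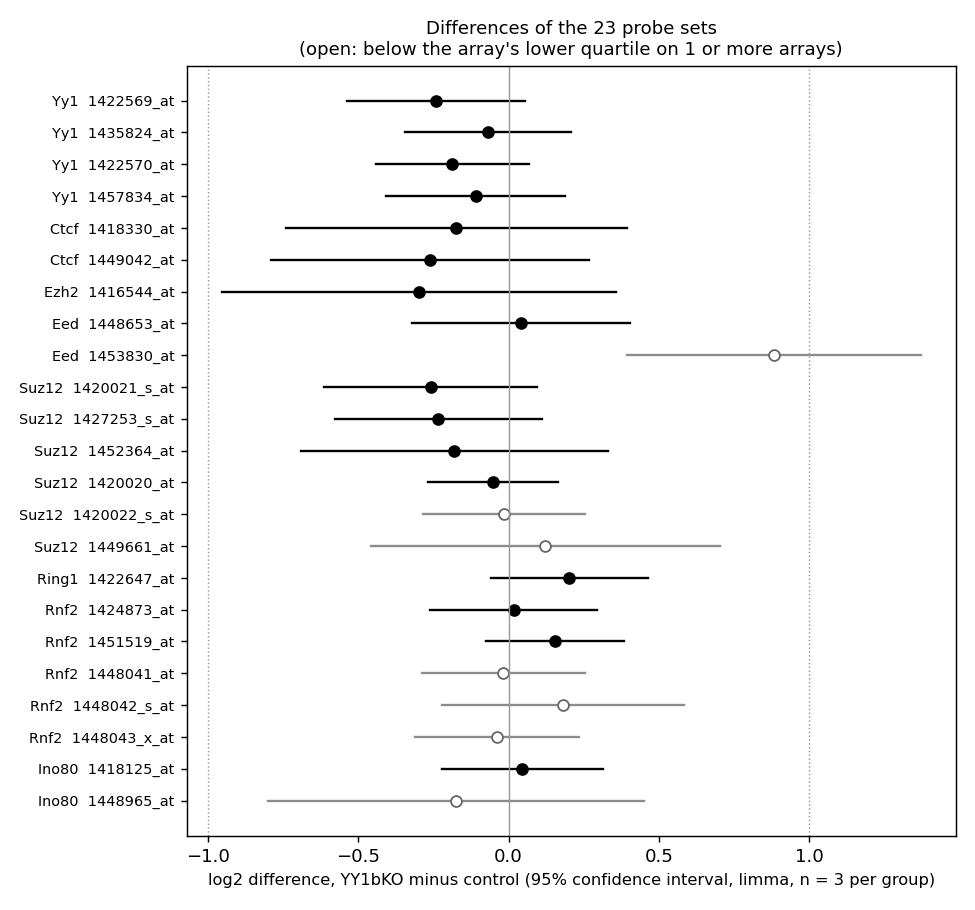
Log2 difference (horizontal axis, YY1bKO minus control, n = 3 arrays each) with its 95% confidence interval for each of the 23 probe sets, named with their gene on the vertical axis. Open symbols mark the 7 probe sets below an array's lower quartile of intensity on 1 or more arrays, and dotted lines mark -1 and 1. All intervals but that of Eed probe set 1453830_at cross 0.

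Array medians of intensity lay between 123.15 and 130.35, and lower quartiles between 29.9 and 31.7, or 4.95 to 5.03 on the log2 scale. The tissue markers were those of fat, with Adipoq between 13.96 and 14.29 in all 6 arrays. The white adipocyte list was not even between the groups. Of its 11 probe sets, 10 were higher in YY1bKO, with a median log2 difference of 0.33. At an unadjusted p under 0.05 by limma 3 were higher (27.3%, against 7.69% of all probe sets), and 0 passed when adjusted. The 3 were Nnat (log2 difference 0.95), Agt (0.83) and 1424155_at of Fabp4 (0.60). Adipoq (0.12), Pparg (0.24) and Cebpa (0.40) were not among them, and Lep was lower (-0.31). The means of the white adipocyte list ran from -0.36 to 0.11 in control and from 0.04 to 0.35 in YY1bKO. Marker lists of other cell types differed between arrays, and some also between groups. The thermogenic adipocyte list had means from -1.10 to -0.55 in control and from 0.72 to 1.01 in YY1bKO (log2 values centred per probe set), with 8 of its 15 probe sets higher at an unadjusted p under 0.05 by limma and 3 when adjusted. The mean of the B cell list (8 of 9 genes measured) was -1.82, 0.75 and 2.02 in control 1, 2 and 3 and -1.97, 1.09 and -0.07 in YY1bKO 1, 2 and 3. Control 2 stood apart in skin and mammary epithelium genes (2.70, against -0.72 to -0.09 elsewhere) and YY1bKO 1 in skeletal muscle genes (2.09, against -0.54 to -0.17). Within the muscle list Acta1 was higher in all 3 YY1bKO arrays, with 10.62, 9.04 and 10.62 against 8.29, 7.51 and 8.22 in control (limma adjusted p = 0.279). In whole tissue, a lower value can come from fewer cells of a type or from less RNA per cell, and these cannot be told apart.

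Yy1 was the first gene examined, since it is the gene targeted in these mice. Its brightest probe set, 1422569_at, had log2 values of 10.33, 10.52 and 10.62 in control and 10.13, 10.41 and 10.20 in YY1bKO, which on the intensity scale were 1288, 1470 and 1568 against 1118, 1358 and 1179. The groups overlapped, because YY1bKO 2 lay above control 1. YY1bKO minus control was -0.24 ± 0.12 log2 units (SE, n = 3 each; 95% confidence interval from -0.54 to 0.05), a level 1.18-fold lower, with a limma adjusted p of 0.601 and an exact 2-sided permutation p of 0.2. With 3 arrays on each side, no permutation p can fall under 0.1.

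The other 3 Yy1 probe sets gave the same sign and smaller differences. Probe set 1435824_at, nearly as bright, had values of 10.17, 10.01 and 10.31 in control and 9.98, 10.16 and 10.13 in YY1bKO, a log2 difference of -0.07 ± 0.11 (SE). Probe set 1422570_at was the only member probe set whose YY1bKO values all lay below the controls, with 6.65, 6.93 and 6.77 against 6.95, 6.94 and 7.03, and the gap between the nearest arrays, 6.934 and 6.936, was close to 0. Over all probe sets, 5.09% had groups that did not overlap in this direction. Its log2 difference was -0.19 ± 0.11 (SE; limma adjusted p = 0.636, exact permutation p = 0.1, the smallest the design gives). The dimmest, 1457834_at, lay between 5.15 and 5.50 on all arrays, not far above the lower quartile, with a difference of -0.11. Without single arrays in turn, the difference of 1422569_at ran from -0.32 to -0.18, while that of 1435824_at ran from -0.15 to 0.0041. The labels do not say which part of Yy1 is floxed or where these probe sets lie, so whether they can report the deletion was not tested.

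Ucp1, whose regulatory sequences drive the Cre, was one of the 6 probe sets past the threshold. Its log2 values were 5.71, 5.67 and 5.43 in control and 10.65, 11.01 and 10.91 in YY1bKO. The same YY1bKO arrays that held high Ucp1 held Yy1 1422569_at values of 10.13, 10.41 and 10.20, against 10.33 to 10.62 in control. By Yy1 1435824_at they held 9.98, 10.16 and 10.13, against 10.01 to 10.31 in control.

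**Figure D2:**
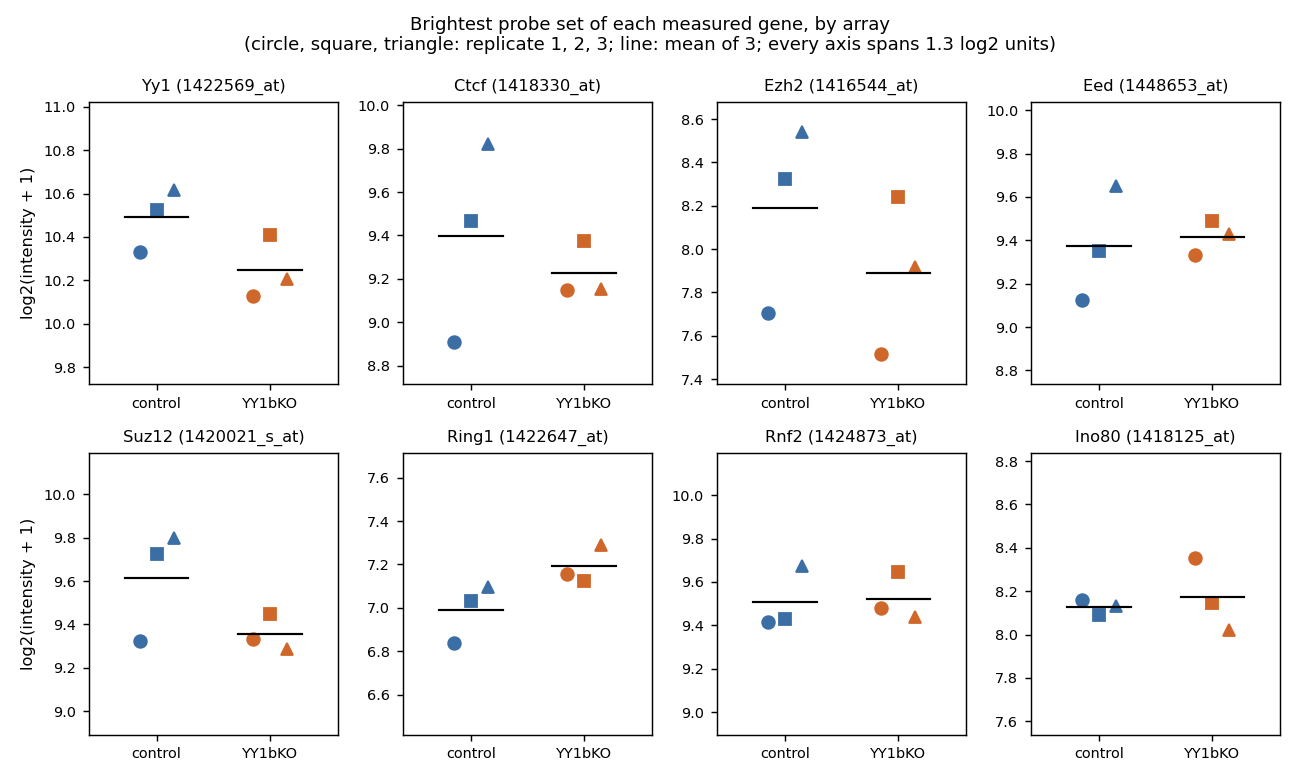
Log2(intensity + 1) of the brightest probe set of each of the 8 genes measured alone (vertical axis; every panel spans 1.3 log2 units), for the 3 control and 3 YY1bKO arrays. Circles, squares and triangles are replicates 1, 2 and 3 and lines are group means. The groups overlap in every panel but that of Ring1, where all YY1bKO values (7.13 to 7.29) lie above the controls (6.84 to 7.10).

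Ctcf encodes the zinc finger protein that anchors chromatin loops together with cohesin. Probe set 1418330_at had log2 values of 8.91, 9.47 and 9.82 in control and 9.15, 9.37 and 9.15 in YY1bKO, a difference of -0.17 ± 0.23 (SE; limma adjusted p = 0.853). The controls spanned 0.92 log2 units and the YY1bKO arrays 0.22, and all 3 YY1bKO values lay inside the control range. Probe set 1449042_at repeated this order, with 8.62, 9.21 and 9.43 against 8.88, 8.92 and 8.67 and a difference of -0.26 ± 0.22 (SE; limma adjusted p = 0.756). The 95% confidence intervals of the pair, -0.74 to 0.39 and -0.79 to 0.27, leave room for differences in either direction.

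The Ctcf promoter was the only 1 of 8 member promoters in RefSeq (GRCm38.p6, from 250 bases before to 50 bases after the start; Rybp had no entry) with a match to AANATGGC, the core of the motif that YY1 is known to bind, searched on both strands with N for any base. Matches were present in 6.96% of the 27025 genes with a promoter and in 14 of 55 genes (25.5%) of the PRC2, PRC1, PR-DUB, INO80 and cohesin lists. A selection of these windows is printed because they show which chromatin genes carry the letters that the deleted factor reads. Each is given 5′ to 3′ on the gene's strand, with the match in capitals (GCCATNTT is the same motif read from the other strand).
Ctcf, chr8:105636537-105636566, plus strand: accgcgccgccGCCATTTTgtgtccgagcc
Smc3, a cohesin subunit, chr19:53600385-53600414, plus strand: ccgcggccgccGCCATTTTgtttggccaca
Hcfc1, a PR-DUB partner, chrX:73966315-73966344, minus strand: agaggcggctcAAGATGGCggctcccagag
E2f6, a repressor in a PRC1 variant, chr12:16810961-16810990, plus strand: gcgcatgcggaAAGATGGCcggccagggaa
Ino80e, an INO80 subunit, chr7:126862438-126862467, minus strand: catctcccggcGCCATTTTgcgtcaccagg
The Ctcf and Smc3 matches begin at positions 11 and 1, counted from the start of the transcript. Of the 14 genes with a match, 12 were measured, by 27 probe sets. By limma 0 of the 27 were at an unadjusted p under 0.05, against 9.74% of all probe sets, and 0 passed when adjusted. Of the 27, 8 were higher, against 50.3% of all, with a median log2 difference of -0.03. Of the 41 genes of the same lists that were searched and held no match, 34 were measured, by 79 probe sets. Their median was -0.02, and 3 were at an unadjusted p under 0.05 by limma, all 3 higher (3.80%, against 7.69% of all probe sets). A match is a description of the sequence, not a binding site. The listed genes were not matched to the others for number of promoters, base composition or expression. The shares of 25.5% and 6.96% are therefore no test of enrichment.

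Ezh2, Eed and Suz12 form the core of PRC2, in which Ezh2 is the methyltransferase, Eed reads the finished mark and Suz12 holds the complex together. Ezh2 (1416544_at) had log2 values of 7.71, 8.32 and 8.54 in control and 7.52, 8.24 and 7.92 in YY1bKO. The groups overlapped widely, with the lowest array in YY1bKO and the highest in control. Its log2 difference of -0.30 ± 0.27 (SE, n = 3 per group; limma adjusted p = 0.775) was the lowest among the members, and its interval reached from -0.95 to 0.36.

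The probe sets of Eed gave differences of unequal size. The bright probe set, 1448653_at, had 9.12, 9.35 and 9.65 in control and 9.33, 9.49 and 9.43 in YY1bKO, a difference of 0.04 ± 0.15 (SE; limma adjusted p = 0.95). The dim one, 1453830_at, had 5.11, 4.67 and 4.86 in control and 6.12, 5.72 and 5.45 in YY1bKO. There the groups did not overlap, and the difference was 0.88 ± 0.20 (SE; 95% confidence interval 0.39 to 1.37; unadjusted p = 0.00424 by limma), the highest among the members, with an adjusted p of 0.279. Of all probe sets, 10.5% had groups that did not overlap in this direction. The values of control 2 and control 3 lay below the lower quartile of their arrays, so the size of this difference is not exact. It stayed between 0.70 and 1.04 without any single array, but was 0.64 and 0.35 with pseudocounts of 16 and 64. The bright probe set had a difference of -0.09 without control 1 and of up to 0.18 without another array.

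Suz12 had 6 probe sets, and in the 3 brightest control 1 was the lowest control. The brightest, 1420021_s_at, had 9.32, 9.72 and 9.80 in control and 9.33, 9.45 and 9.28 in YY1bKO, a difference of -0.26 ± 0.15 (SE; limma adjusted p = 0.64). Probe set 1427253_s_at had 8.59, 9.03 and 9.01 against 8.64, 8.71 and 8.58, a difference of -0.23. In both, control 2 and control 3 lay above every YY1bKO array, while control 1 lay among them. Probe set 1452364_at had a difference of -0.18 and 1420020_at, with values from 7.43 to 7.59 on all arrays, of -0.05. The dim probe sets 1420022_s_at and 1449661_at, each below the lower quartile on 1 array, had differences of -0.02 and 0.12.

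The wider PRC2 list held 11 genes, all measured, with 28 probe sets. Of these, 8 were higher and 20 lower, where 50.3% of all probe sets were higher, and the median was -0.11. By limma 0 passed when adjusted, and 2 were at an unadjusted p under 0.05 and higher (7.14%, against 7.69% of all probe sets). The 2 were the dim Eed probe set and Ezh1, the methyltransferase that takes the place of Ezh2 mainly in resting cells. Ezh1 (1449023_a_at) had 9.67, 9.63 and 9.76 in control and 10.15, 9.96 and 9.86 in YY1bKO, a difference of 0.30 ± 0.11 (SE; limma adjusted p = 0.453), and the groups did not overlap. YY1bKO 1, with the highest value, was also the array with the high skeletal muscle genes. YY1bKO 2 and 3 lay above the controls too, with muscle list means of -0.54 and -0.46. The part of muscle in the Ezh1 values was not tested. The dimmer Ezh1 probe set had a difference of 0.15. The within-array contrast of Ezh1 to Ezh2, chosen after the values were seen, was 1.96, 1.31 and 1.23 log2 units in control and 2.63, 1.73 and 1.95 in YY1bKO, a difference of 0.60 that did not separate the groups (exact 2-sided permutation p = 0.3). The 4 probe sets of Mtf2, a PRC2 partner that binds CpG-rich DNA, had differences from -0.50 to -0.32, none at an unadjusted p under 0.05 by limma.

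Ring1 and Rnf2 are the alternative E3 ligases at the centre of PRC1, and Rybp is the subunit of its variant forms that also binds YY1. Ring1 (1422647_at) had 6.84, 7.03 and 7.10 in control and 7.16, 7.13 and 7.29 in YY1bKO. The groups did not overlap, although the nearest arrays were 7.10 and 7.13, and the difference was 0.20 ± 0.11 (SE; limma adjusted p = 0.625; exact permutation p = 0.1, the smallest the design gives). Rnf2 had 9.42, 9.43 and 9.67 against 9.48, 9.65 and 9.44 by its brightest probe set, 1424873_at, with a difference of 0.02 ± 0.11 (SE). Probe set 1451519_at had 8.79, 8.60 and 8.71 against 8.88, 8.90 and 8.78, where YY1bKO 3 lay just below control 1, with a difference of 0.16 ± 0.09 (SE; limma adjusted p = 0.666). The other 3 Rnf2 probe sets lay below the lower quartile on all 6 arrays and had differences from -0.04 to 0.18. For Rybp, the probe set 1421111_at, annotated also to the pseudogene Rybp-ps, lay between 5.21 and 5.49 on all arrays with a difference of -0.01 ± 0.11 (SE), and it is not counted for Rybp.

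The wider PRC1 list had 18 of 25 genes measured, with 34 probe sets, 15 higher and 19 lower and a median of -0.02. None passed when adjusted by limma. At an unadjusted p under 0.05, 1 was higher (2.94%, against 7.69% of all probe sets), Pcgf1, a subunit that defines a variant PRC1. It had 5.64, 5.68 and 5.89 in control and 5.95, 6.18 and 6.04 in YY1bKO, a difference of 0.32 ± 0.11 (SE; limma adjusted p = 0.455). Kdm2b, the demethylase that brings that variant to CpG islands, had the lowest difference of the list, -0.71 ± 0.37 (SE; limma adjusted p = 0.614), with 9.46 in control 2 and values from 7.66 to 8.47 elsewhere. Control 2 was the array with the high epithelial genes, and their part in this value was not tested. PR-DUB, which removes the ubiquitin that PRC1 adds and whose subunit Bap1 binds YY1 through Hcfc1, had 6 of 7 genes measured. Its 17 probe sets had differences from -0.23 to 0.17 with 0 at an unadjusted p under 0.05 by limma, against 9.74% of all probe sets. The 2 genes with the smallest p were Foxk2 (log2 difference 0.17) and Bap1 (log2 difference 0.17).

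Ino80 encodes the ATPase of the INO80 complex. Probe set 1418125_at had 8.16, 8.09 and 8.13 in control and 8.35, 8.14 and 8.02 in YY1bKO, a difference of 0.05 ± 0.11 (SE; limma adjusted p = 0.92). The controls lay within 0.07 log2 units of each other and the YY1bKO arrays spread around them. The dim probe set 1448965_at had 5.44, 5.46 and 5.60 against 5.93, 4.95 and 5.10, a difference of -0.17. The probe set 1417317_s_at, annotated to Ino80 and 5 other genes, among them the ribosomal protein gene Rpl35a, lay between 12.79 and 13.41 and is not counted for Ino80. The complex's list had 12 of 15 genes measured, Yy1 among them, with 23 probe sets, 14 higher, 9 lower and a median of 0.06. None passed when adjusted by limma, and 2 were at an unadjusted p under 0.05, both higher (8.70%, against 7.69% of all probe sets). They were Actr8, an actin-related subunit (8.60, 8.51 and 8.67 against 9.05, 8.83 and 9.01, difference 0.37 ± 0.10 SE, limma adjusted p = 0.341), and Tfpt (1418064_at, difference 0.30, limma adjusted p = 0.472), whose other probe sets had differences of 0.29, 0.04 and 0.07.

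The list of CTCF and cohesin had 9 of 11 genes measured, with 22 probe sets, 11 higher and 11 lower and a median of -0.01. Rad21, the cohesin subunit that closes the ring, was the only gene of it at an unadjusted p under 0.05 by limma. Its dimmest probe set 1416162_at had 6.58, 6.53 and 6.57 in control and 6.93, 7.15 and 7.13 in YY1bKO, a difference of 0.51 ± 0.10 (SE; limma adjusted p = 0.204). Its brightest probe set 1416161_at had 10.46, 10.44 and 10.34 against 10.44, 10.67 and 10.64, with overlapping groups and a difference of 0.17, and its remaining probe set had a difference of 0.02. Leaving the members aside, the lists of PRC2, PRC1, PR-DUB, INO80 and cohesin had 48 of 60 genes measured by 101 probe sets, of which 4.95% were higher at an unadjusted p under 0.05 and 0 lower, against 7.69% and 2.05% of all probe sets. Their median was -0.01.

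**Figure D3:**
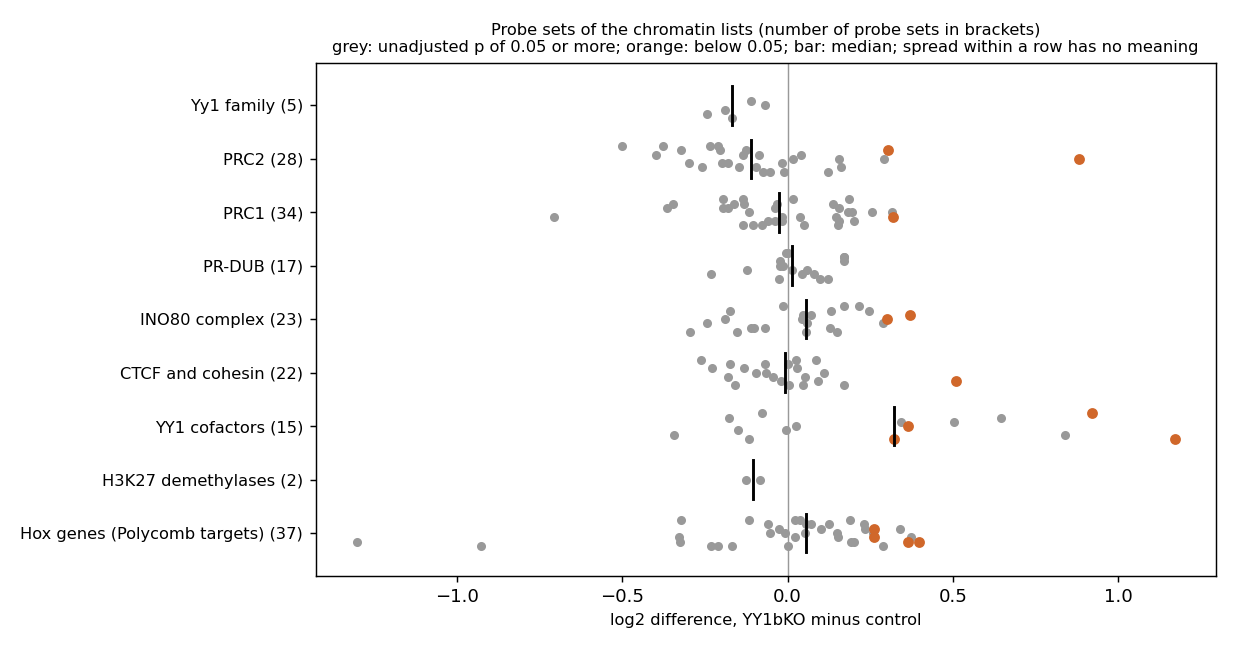
Log2 differences (horizontal axis) of the probe sets of each chromatin list (rows, number of probe sets in brackets, members included), with the list's median as a black bar. Orange points are at an unadjusted p under 0.05 by limma, and all of them lie to the right of 0. At that level 7.69% of all probe sets of the array were higher and 2.05% lower. None passed an adjusted p of 0.05.

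Gene groups outside the complexes were examined beside them. Yy1's relatives by sequence were represented by Zfp42 alone, which lay between 3.07 and 3.45, below the lower quartile on all 6 arrays, with a difference of -0.17 (limma adjusted p = 0.704). Of the cofactors that bind YY1, 9 of 10 genes were measured by 15 probe sets, 4 of which were higher at an unadjusted p under 0.05 by limma, against 7.69% of all probe sets, and the median was 0.32. Mtor (1417592_at) had values from 8.97 to 9.07 in control and 9.31, 9.25 and 9.45 in YY1bKO, a difference of 0.32 ± 0.10 (SE; limma adjusted p = 0.371). Kat2b (1434037_s_at), a histone acetyltransferase that acetylates YY1, had 10.61, 10.73 and 10.42 against 10.99, 10.82 and 11.04 (difference 0.36, limma adjusted p = 0.415). The remaining 2 were probe sets of Ppargc1a, the PGC-1α gene, with differences of 0.92 and 1.17 (limma adjusted p = 0.356 and 0.401). Ppargc1a is also a gene of the thermogenic adipocyte list, whose means did not overlap between the groups. Probe sets of Ppargc1a enter those means, so the list is no independent readout for this gene. The part of thermogenic adipocytes in the Ppargc1a values was not tested. A dimmer Mtor probe set had a difference of -0.12. With 1 probe set per gene, the brightest, the median of this list was -0.01, since Ppargc1a has 5 of its probe sets. It was 0.11 without YY1bKO 1, 0.13 with a pseudocount of 64 and -0.04 over probe sets above the 50th percentile of brightness. The H3K27 demethylase Kdm6a, which removes the PRC2 mark, had differences of -0.08 and -0.13.

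Hox genes are classical targets of Polycomb repression and mark position along the body. Of 39 listed, 31 were measured by 37 probe sets, with 24 higher, 13 lower and a median of 0.06, and 0 passed when adjusted by limma. The median was 0.14 over probe sets above the 25th percentile of brightness and -0.21 over those above the 50th. At an unadjusted p under 0.05, 4 of the 37 were higher and 0 lower, against 7.69% and 2.05% of all probe sets. Hoxa5 had 6.58, 6.31 and 6.50 in control and 6.82, 6.78 and 6.89 in YY1bKO, a difference of 0.36 ± 0.11 (SE; limma adjusted p = 0.361). Hoxb4 had a difference of 0.40 (adjusted p = 0.496), and Hoxa2 (1419602_at) and Hoxa3 (1427433_s_at), below the lower quartile on all 6 arrays, of 0.26 each (adjusted p = 0.482 for both). The lowest differences were those of Hoxd10 (-1.30 ± 0.92 SE) and Hoxa9 (-0.93 ± 0.70 SE), where control 2 alone was high, with 8.24 against 4.52 to 5.06 and 10.85 against 8.00 to 8.61. Control 2 held the high epithelial genes, and their part in these values was not tested.

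Across the controls, most bright member probe sets had the order of the lymphocyte genes. Of the 16 probe sets that never lay below the lower quartile, control 3, which had the highest B cell mean, was the highest control in 11, and control 1, which had the lowest B cell mean among controls, was the lowest in 10. Both held in 9 of the 16, against 21.6% of the 14837 probe sets of the table that pass the same filter. Ezh2 followed the B cell list over all 6 arrays but for control 2 and YY1bKO 2, which changed places, while Ino80 1418125_at was highest in control 1 among the controls. The T cell list ran from -1.17 to 1.19 in the same order. The proliferation list, which does not hold Ezh2, ran from -0.08 to 0.61 in control and from -0.69 to -0.02 in YY1bKO. Of its 32 probe sets 31 were lower, with a median of -0.59, 5 of them (15.6%) at an unadjusted p under 0.05 by limma, against 2.05% of all probe sets, and 8 had YY1bKO values all below the controls, against 5.09%. None of the 32 passed when adjusted, and the part of dividing cells in the Ezh2 difference was not tested. No marker gene was at 0 on any array, but the lowest intensity of the whole table was 5.4, so this does not show detection. Pax5 of the B cell list lay below the lower quartile on all 6 arrays. With the B cell mean as a covariate, an alternative chosen after the values were seen, the difference of Ezh2 was -0.16 ± 0.08 (SE) and that of Ctcf 1418330_at -0.07 ± 0.14 (SE), beside -0.30 ± 0.27 and -0.17 ± 0.23 without it. That of Yy1 1422569_at was -0.19 ± 0.08 (SE; limma adjusted p = 0.412). Not every member moved towards 0 in that fit. The differences of Ring1 (0.23, beside 0.20), Eed 1448653_at (0.10, beside 0.04) and Ino80 1448965_at (-0.24, beside -0.17) lay farther from it. None of the 23 probe sets passed in that fit, and 1 was at an unadjusted p under 0.05, where 13.0% of all probe sets were.

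The count at an unadjusted p under 0.05 depended on control 1. Without it, 7 of the 23 probe sets had an unadjusted p under 0.05 by limma (6 in the lower direction, 1 in the higher), against 17.3% of all probe sets in that fit (4.74% and 12.5%), and 0 passed when adjusted. The 6 were 1422569_at of Yy1 (-0.32), both of Ctcf (-0.42 and -0.50) and 3 of Suz12 (-0.40, -0.38 and -0.41), with limma adjusted p between 0.166 and 0.27, and the 1 was the dim Eed probe set. Without YY1bKO 1 the count was 3, and without any of the other 4 arrays it was 1. The shares of all probe sets in those fits are not given, so these counts are no result about the members. Without control 1 the B cell means were 0.75 and 2.02 in the controls left and -1.97, 1.09 and -0.07 in YY1bKO. The part of lymphocyte RNA in the differences of that fit was not tested.

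**Figure D4:**
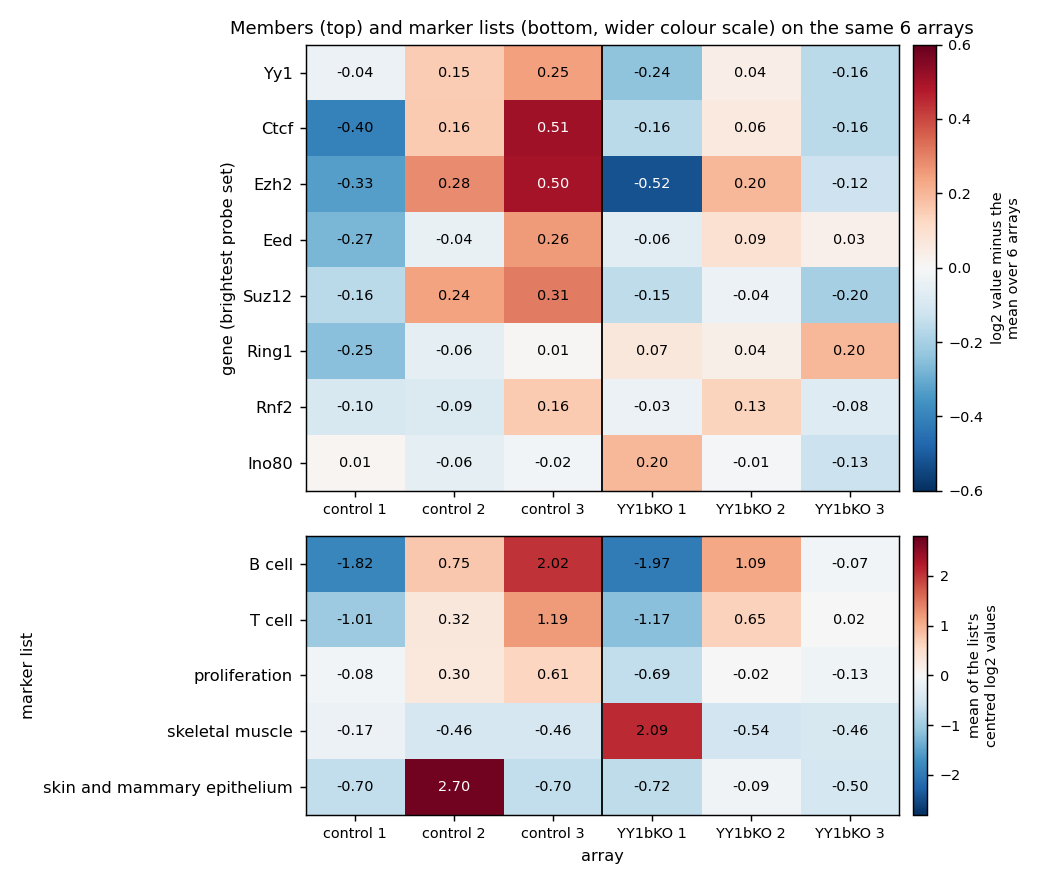
Log2 values of the brightest probe set of each gene, centred on its mean over the 6 arrays (top), and means of 5 marker lists centred in the same way (bottom, with a wider colour scale), by array. Ctcf, Ezh2 and Suz12 are high in control 3 and low in control 1 (0.51 and -0.40 for Ctcf), as is the B cell list (2.02 and -1.82). In YY1bKO 1, 2 and 3 the B cell list is at -1.97, 1.09 and -0.07. There Ctcf is at -0.16, 0.06 and -0.16 and Suz12 at -0.15, -0.04 and -0.20.

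The genes whose levels ran most like those of Yy1 1422569_at over the 6 arrays, among 9874 genes above the 25th percentile of brightness, were Runx1 (Pearson's r = 0.999), Cdc42se1 (0.992), Cbfb (0.991), Slco2a1 (0.989) and Zw10 (0.989). For Ezh2 they were Sinhcaf (0.998), Trim59 (0.997), Topbp1 (0.996), Itpr3 (0.996) and Cdt1 (0.995). These are descriptions, since among so many genes some run alike over 6 arrays and the arrays differ in lymphocyte genes. Runx1 had 6.93, 7.49 and 7.84 in control and 6.26, 7.13 and 6.49 in YY1bKO, the same order as Yy1 over a wider range. Trim59 ran from 5.59 to 8.77 in control and from 5.06 to 7.62 in YY1bKO. None of these 10 genes passed an adjusted p of 0.05 by limma.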

How the data were processed

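The authors deposited RMA values, per the submitters' processing notes, and the deposited columns hold linear intensity. No RMA version is named there. RMA equalises the distributions of the arrays, so a shift shared by most genes would be removed. The platform annotation gave 20393 of 22690 probe sets 1 gene symbol, 691 several and 1606 none, and 20364 matched a RefSeq gene (GRCm38.p6) by identifier. Intensities were tested as log2(value + 1), with limma 3.58.1 (lmFit, eBayes, 6.26 degrees of freedom; R 4.3.3), 2-sided, unfiltered, with Benjamini-Hochberg adjustment over the 20393 probe sets and a threshold of 0.05. In 20 simulations on these probe sets, 200 were changed in each. Of these, 60.5% were recovered at a log2 change of 1 and 86.7% at 2, and 4.97% of calls were false. Many changed probe sets ease the adjusted threshold, and only 6 passed in the data, so these shares overstate what could be called here. Nnat, with a log2 difference of 0.95 ± 0.11 (SE), and Cox7a1, with 2.39 ± 0.28 (SE), each had a limma adjusted p of 0.11.

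Groups came from the titles. Members and lists were chosen with earlier results of these data known, and lists are described by counts and medians, without a test. Each list's genes at an unadjusted p under 0.05 are named, otherwise the 2 with the smallest p. For Yy1 and Ezh2 the 5 genes most like each are named. Mtf2, Kdm2b, Hoxd10 and Hoxa9 were named after their values were seen. Alternatives covered normalization, pseudocount, filters, probe set summary, limma settings and left-out arrays.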

Additional observations from a re-analysis of the deposited data

How the results depend on the processing

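In all 21 other fits 0 member probe sets passed the limma threshold, and the Yy1 difference of 1422569_at stayed negative, from -0.32 to -0.15 (-0.15 as the mean of the 4 probe sets). Of 435 recomputed member differences 410 kept their sign. None that turned passed the threshold, and the farthest from 0 was Suz12 1449661_at, 0.12 with all arrays and -0.15 without control 1. The turned values were 0.035 (Suz12 1420022_s_at), -0.019 (Rnf2 1424873_at) and 0.026 (Rnf2 1448041_at) with quantile normalization, and -0.0060 (Eed 1448653_at), -0.0073 (Suz12 1449661_at) and -0.026 (Rnf2 1424873_at) with array weights. Without control 2 and YY1bKO 1 together they were 0.036 (Suz12 1420022_s_at), -0.0016 (Rnf2 1424873_at), 0.030 (Rnf2 1448041_at) and -0.062 (Ino80 1418125_at), and with the B cell covariate 0.0062 (Suz12 1420022_s_at). Leaving out 1 array at a time gave ranges of -0.15 to 0.0041 (Yy1 1435824_at), -0.42 to 0.037 (Ctcf 1418330_at), -0.086 to 0.18 (Eed 1448653_at), -0.094 to 0.052 (Suz12 1420022_s_at) and -0.15 to 0.30 (Suz12 1449661_at). For Rnf2 they were -0.046 to 0.10 (1424873_at), -0.095 to 0.050 (1448041_at) and -0.11 to 0.014 (1448043_x_at), and for Ino80 -0.043 to 0.12 (1418125_at) and -0.48 to 0.013 (1448965_at), with -0.50 for the latter without control 2 and YY1bKO 1 together.

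Over the whole array, the count past the threshold was 6. It was 11 and 10 with pseudocounts of 16 and 64, 11 with all probe sets tested, 12 with array weights, 1 without control 2 and YY1bKO 1, and 1 to 6 without single arrays (1 without YY1bKO 1, 2 or 3, and 3 without control 3). The member count at an unadjusted p under 0.05, which was 1, was 3 with array weights, 2 without control 2 and YY1bKO 1, and 0 with the brightest probe set per gene or above the 50th percentile. Shares of all probe sets in those fits are not given, so these member counts are no result about the members. With the replicate number as a block the count over the whole array was 1, and the Yy1 difference remained -0.24 (limma adjusted p = 0.538). No pairing of same-numbered arrays is stated in the labels. Their deviations from the group means correlated at 0.59, 0.10 and 0.013, and YY1bKO 2 correlated best with control 3. The value of 0.59 for control 1 and YY1bKO 1 was the highest of any pair, so a pairing is neither shown nor excluded. Of 189 list medians 13 moved by more than the spread between arrays. Signal over background limits the 7 dim member probe sets.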
